A study of Mus musculus with 71 samples.

Results

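Serpins are a family of proteins that mostly inhibit serine proteases, and 40 of the 18193 genes measured here belong to it. The 40 were taken by symbol, as every gene whose probe set is annotated with exactly 1 symbol beginning Serpina to Serpini. A gene with several probe sets was represented by the probe set of highest mean over all 71 arrays, which applied to 12 of the 40 genes. The clade letters divide them into 14 genes of clade A, 18 of clade B, 2 of clade F, 2 of clade I, and 1 each of clades C, D, G and H.

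A serpin presents a reactive loop as bait, is cleaved by its target protease, and then folds so that the protease is trapped in a dead covalent complex. Some members have lost this activity and act as hormone carriers, chaperones or signalling proteins. Clade A holds mostly secreted plasma proteins, clade B holds proteins that stay inside the cell, and in the brain the family is best known for neuroserpin, made by neurons, and for Serpina3n, made by reactive astrocytes.

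The study asked how mouse forebrain gene expression differs when the histone H3 lysine 9 methyltransferase GLP (gene Ehmt1) or its partner G9a (gene Ehmt2) is deleted. Total RNA of whole hippocampus, hypothalamus, striatum and cortex came from Camk2a-Cre; GLPfl/fl or Camk2a-Cre; G9afl/fl mutants and from age and sex matched littermate controls, each group having 4 arrays except 3 for the G9a hippocampus controls and 2 each for the G9a cortex mutants and controls. Polyribosome RNA came from mutants that were Drd1-Cre; Drd1-bacTRAP; G9afl/fl, from others that were Drd2-Cre; Drd2-bacTRAP; G9afl/fl, and from controls of each kind that carried the same bacTRAP transgene and floxed G9a without Cre, with 3 arrays per group and 5 mice pooled per array. The mice were 10 to 14 weeks old. Camk2a-Cre acts in forebrain excitatory and some other neurons, so glia, vessels and many neurons of the tissue keep the gene, and the bacTRAP tag draws RNA from medium spiny neurons (MSNs) of the striatum with either the Drd1 or the Drd2 dopamine receptor.

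All values below are log2 intensities relative to the median probe set of the same array, so that 0 is the array median, and a change is the mutant mean minus the control mean on that scale. A gene was called when its Benjamini-Hochberg adjusted p in limma, over all genes tested in that comparison, was under 0.05. A gene was tested when it lay above the array median in at least as many of the compared arrays as the smaller group holds. Levels of different genes were not ranked against each other, since each probe set has its own response.

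As a check of the labels, Ehmt1 fell in the GLP mutant hippocampus, striatum and cortex by 0.58, 0.46 and 0.76, while in the hypothalamus its change was -0.16 (adjusted p = 0.711). Ehmt2 fell in all 4 G9a mutant tissues, by 1.02 to 1.76. In the Drd1-MSN arrays Ehmt2 lay at 1.56 to 5.01 in the mutants and 5.49 to 6.22 in the controls (adjusted p = 0.943). The libraries labelled Drd2-MSN mutant held Ehmt2 at 5.91 to 6.04, inside the control range of 5.18 to 6.93, which goes against their label, so directions from that comparison hold for the labels only. The labels do not say which exons are deleted, so whether these probe sets read them directly is unknown. The same Ehmt2 probe set did fall in the 4 G9a mutant tissues, to between 29.5% and 49.2% of control. Drd1-MSN mutant 2 stood apart from the other libraries of its group, with the astrocyte gene Gfap at -2.89, against 2.11 to 2.97 on the other Drd1-MSN arrays, and the lowest Ehmt2 value. In whole tissue, fewer cells of a type and less RNA per cell cannot be told apart.

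Of the 40 serpins, 8 had a group mean above the array median in all 20 groups, 9 in some groups and 23 in none. The 8 were Serpina3n, Serpinb1a, Serpinb6a, Serpinb6e, Serpinb9, Serpinf1, Serpinh1 and Serpini1. The 9 were the pseudogene Serpina4-ps1, Serpina9, Serpina11, Serpinb1b, Serpinb5, Serpinb6b, Serpinb8, Serpind1 and Serping1. Serpinb1b was above the median in 18 groups, Serpind1 and Serping1 in 16, Serpina9 in 13, Serpinb5 and Serpina11 in 5, Serpina4-ps1 in 3, and Serpinb6b and Serpinb8 in 2 each.

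**Figure D1:**
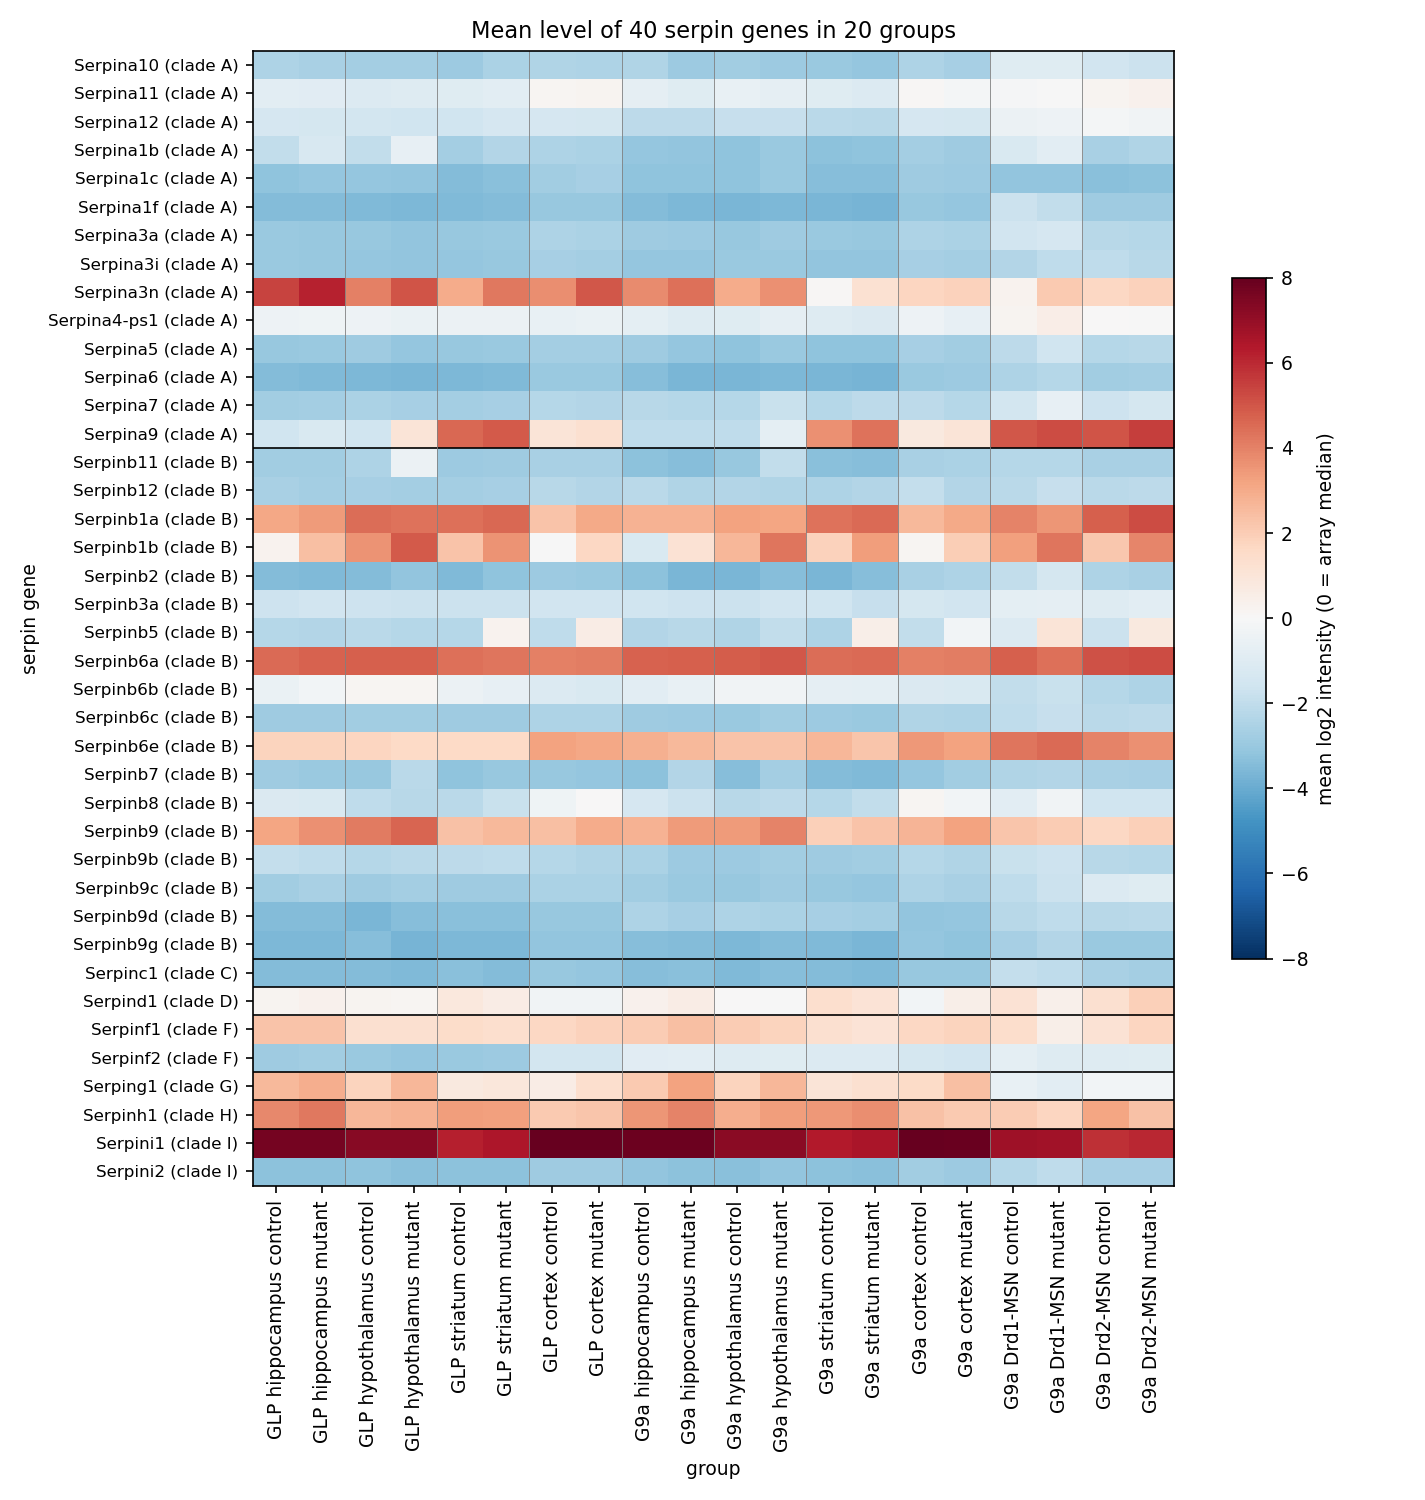
Group mean log2 intensity relative to the array median for the 40 serpins (rows, by clade) in the 20 groups (columns); red is above and blue below the array median. Serpina9 runs from -2.06 in the G9a mutant hippocampus to 5.54 in the group labelled Drd2-MSN mutant, while Serpini1 is above the median in every column.

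The 23 genes below the median in every group include most of the plasma and skin serpins. In clade A they were Serpina1b, Serpina1c and Serpina1f of the antitrypsin group, Serpina3a and Serpina3i, Serpina5 (protein C inhibitor), Serpina6 and Serpina7 (carriers of corticosteroid and thyroid hormone), Serpina10 and Serpina12. In clade B they were Serpinb2 (an inhibitor of plasminogen activators), Serpinb3a, Serpinb6c, Serpinb7, Serpinb9b, Serpinb9c, Serpinb9d, Serpinb9g, Serpinb11 and Serpinb12. Serpinc1 (antithrombin), Serpinf2 (the plasmin inhibitor) and Serpini2 complete the set.

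In the mutants several serpins rose and 0 fell at this threshold, although a fall of Serpinb6e in G9a striatum passed under other settings. Over the 10 mutant comparisons, 17 of the members' tests were called, all of them rises, and they fell on 6 genes: Serpinb1b with 8 calls, Serpinb9 and Serping1 with 3 each, and Serpinb5, Serpina9 and Serpinb1a with 1 each. Of the 40 serpins, 17 were tested in at least 1 mutant comparison and 9 in all 10.

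In the hippocampus of GLP mutants 1 of 11 tested serpins rose, where 1.73% of all genes tested rose and 0.317% fell. For GLP hypothalamus it was 3 of 13 (all genes: 0.824% rose, 0.191% fell). For GLP striatum it was 1 of 12 (1.15% rose, 0.52% fell). For GLP cortex it was 4 of 13 (1.31% rose, 0.233% fell). The median change of the tested serpins in these 4 tissues was 0.31, 0.02, 0.15 and 0.3, against -0.02, 0.0, -0.02 and 0.0 over all genes tested.

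In G9a mutants the count was 3 of 11 in hippocampus (all genes: 2.25% rose, 0.469% fell). It was 3 of 10 in hypothalamus (1.59% rose, 0.75% fell), 1 of 12 in striatum (1.87% rose, 1.15% fell) and 1 of 14 in cortex (0.625% rose, 0.103% fell). The median change was 0.35, 0.27, 0.22 and 0.17, against 0.03, 0.01, 0.0 and -0.02 over all genes tested. In Drd1-MSN and Drd2-MSN, 0 of 13 tested serpins were called by limma in either comparison, and 3 in each had an unadjusted p under 0.05. Over all genes, 282 of 12060 in Drd1-MSN and 170 of 12107 in Drd2-MSN had such an unadjusted p. Very few genes of any kind were called there: 0.0249% rose in Drd1-MSN and 0.0165% in Drd2-MSN, and 0.0% fell in either.

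**Figure D2:**
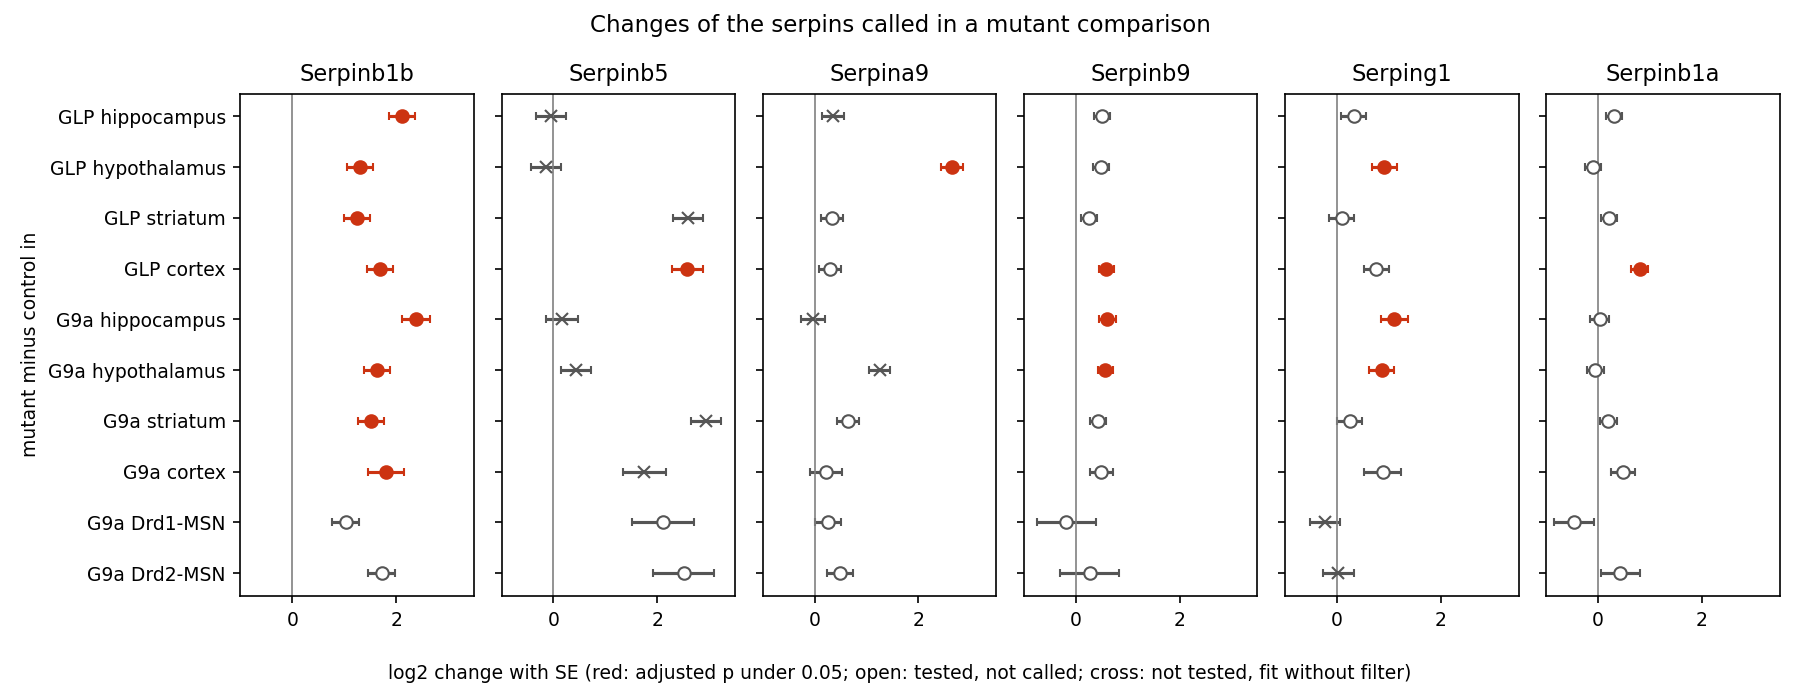
Change in log2 intensity with its SE (horizontal axis) in the 10 mutant comparisons (rows) for the 6 serpins called in any of them (panels); red points were called, open points tested and not called, and crosses left untested by the filter. Serpinb1b lies between 1.03 and 2.39 in all 10 rows, and Serpinb5 at 1.75 to 2.94 in the striatum, cortex and MSN rows alone.

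Serpinb1b rose in all 8 whole-tissue comparisons. It is a clade B paralog of Serpinb1a, the mouse counterpart of the neutrophil elastase inhibitor, and lies in the clade B cluster on chromosome 13. The promoters of Serpinb1b and of Serpinb9, the other clade B gene of that cluster with 3 calls, are shown because both genes rose in several tissues and lie close together, and that of Serpinb5 because its rise was limited to some tissues (it was picked after its values were seen). They are RefSeq sequences of the GRCm38.p6 build, 250 bases before to 50 after the start, on the plus strand, with every CG, the dinucleotide that DNA methyltransferases act on, in capitals.
Serpinb1b, chr13:33083853-33084152: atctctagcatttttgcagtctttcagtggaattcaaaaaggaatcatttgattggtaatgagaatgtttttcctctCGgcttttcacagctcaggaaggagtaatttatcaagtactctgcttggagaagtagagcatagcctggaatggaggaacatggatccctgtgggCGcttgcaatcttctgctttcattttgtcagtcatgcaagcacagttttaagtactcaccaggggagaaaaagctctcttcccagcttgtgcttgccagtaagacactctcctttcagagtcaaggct
Serpinb9, chr13:33004291-33004590: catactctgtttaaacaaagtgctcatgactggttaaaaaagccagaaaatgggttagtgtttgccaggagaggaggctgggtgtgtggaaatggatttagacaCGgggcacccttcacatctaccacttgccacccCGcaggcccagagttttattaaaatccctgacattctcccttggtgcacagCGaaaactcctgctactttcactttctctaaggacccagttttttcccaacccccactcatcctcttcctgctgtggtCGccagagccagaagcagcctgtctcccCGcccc
Serpinb5, chr1:106860925-106861224: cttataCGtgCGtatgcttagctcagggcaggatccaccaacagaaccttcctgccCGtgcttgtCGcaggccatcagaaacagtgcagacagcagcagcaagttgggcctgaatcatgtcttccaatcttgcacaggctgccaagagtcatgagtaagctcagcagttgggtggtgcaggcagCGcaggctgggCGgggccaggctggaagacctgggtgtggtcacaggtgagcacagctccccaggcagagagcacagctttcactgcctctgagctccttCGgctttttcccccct

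The Serpinb1b promoter holds 2 CG, a count at or below which lie 23.3% of the 32851 mouse promoters in the same table. The Serpinb9 promoter holds 5 CG (43.6% have as few or fewer) and the Serpinb5 promoter 7 (51.4%), which is also the median of all promoters. On both strands, the motif CCAAT occurs in the Serpinb1b and Serpinb5 promoters and in 37.4% of all promoters. GGGCGG occurs in the Serpinb9 and Serpinb5 promoters and in 35.7% of all, and TATAAA in none of the 3 and in 13.6% of all. The start used for Serpinb1b lies 5599 bases and that for Serpinb9 7480 bases from the start of the gene's entry in the RefSeq gene table of the same build.

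In the hippocampus of GLP mutants Serpinb1b lay at 2.43, 2.6, 2.4 and 2.29, and in the controls at 1.07, -0.85, 0.19 and 0.81. In G9a mutants it lay at 1.0, 1.48, 1.11 and 1.1, and in the controls at -0.86, -1.75 and -1.06. The 2 lines' controls thus differ in level, and in each line every mutant hippocampus was above every control. The change was 2.12 (SE 0.25, adjusted p = 1.95e-08) for GLP and 2.39 (SE 0.27, adjusted p = 5.42e-09) for G9a. The G9a controls lay below the array median, so the gene entered that test through the mutants, and with the controls set to the median the mutants were at least 2.25-fold higher. For GLP cortex, below, the same bound is 3.13-fold.

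Among the 4 tissues the hypothalamus had the highest Serpinb1b level in controls. It read 5.12, 4.91, 4.77 and 4.87 in the GLP mutants against 3.74, 3.87, 3.14 and 3.73 in the controls. It read 4.2, 4.55, 4.14 and 4.26 in the G9a mutants against 2.5, 3.1, 2.57 and 2.42. The groups did not overlap, and the changes were 1.3 (SE 0.25, adjusted p = 0.00105) and 1.64 (SE 0.25, adjusted p = 2.5e-05).

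In the striatum the GLP mutants had Serpinb1b at 3.66, 3.93, 3.46 and 3.22 and their controls at 2.84, 2.25, 1.75 and 2.4. The G9a mutants had it at 3.52, 3.49, 3.2 and 3.19 and their controls at 2.3, 2.29, 1.14 and 1.62. Again no control array reached a mutant array, with changes of 1.25 (SE 0.25, adjusted p = 0.00116) and 1.51 (SE 0.25, adjusted p = 4.32e-05).

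In the cortex, where control levels were near the array median, Serpinb1b read 1.54, 1.94, 1.42 and 1.68 in GLP mutants against 0.17, -0.42, -0.08 and 0.17 in controls. The 2 G9a mutant arrays read 1.81 and 2.1 and the 2 controls 0.13 and 0.18. The changes were 1.69 (SE 0.25, adjusted p = 4.51e-06) and 1.81 (SE 0.35, adjusted p = 0.00156), the latter with an adjusted p of 0.083 when G9a cortex mutant 2 was left out.

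The polyribosome RNA of MSNs gave the same order of arrays without a call. Drd1-MSN mutants had Serpinb1b at 4.3, 4.18 and 4.44 and controls at 3.56, 2.98 and 3.3, a change of 1.03 (SE 0.26, adjusted p = 0.943). The libraries labelled Drd2-MSN mutant had it at 3.86, 4.03 and 3.81 and the controls at 1.87, 2.42 and 2.26, a change of 1.72 (SE 0.26, adjusted p = 0.0708). That Drd2-MSN change was called with quantile normalization (adjusted p = 0.0449), without the intensity trend (0.0288) and with probe sets averaged per gene (0.0218).

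Every array labelled mutant was thus above every control array for Serpinb1b in 10 of 10 comparisons, of which Drd2-MSN rests on labels that Ehmt2 goes against. Among all genes tested, that held for 3.96%, 1.87%, 2.76% and 5.83% in GLP hippocampus, hypothalamus, striatum and cortex. It held for 7.82%, 2.51%, 6.11% and 18.4% in the same G9a tissues, for 2.9% in Drd1-MSN and for 3.4% in Drd2-MSN.

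**Figure D3:**
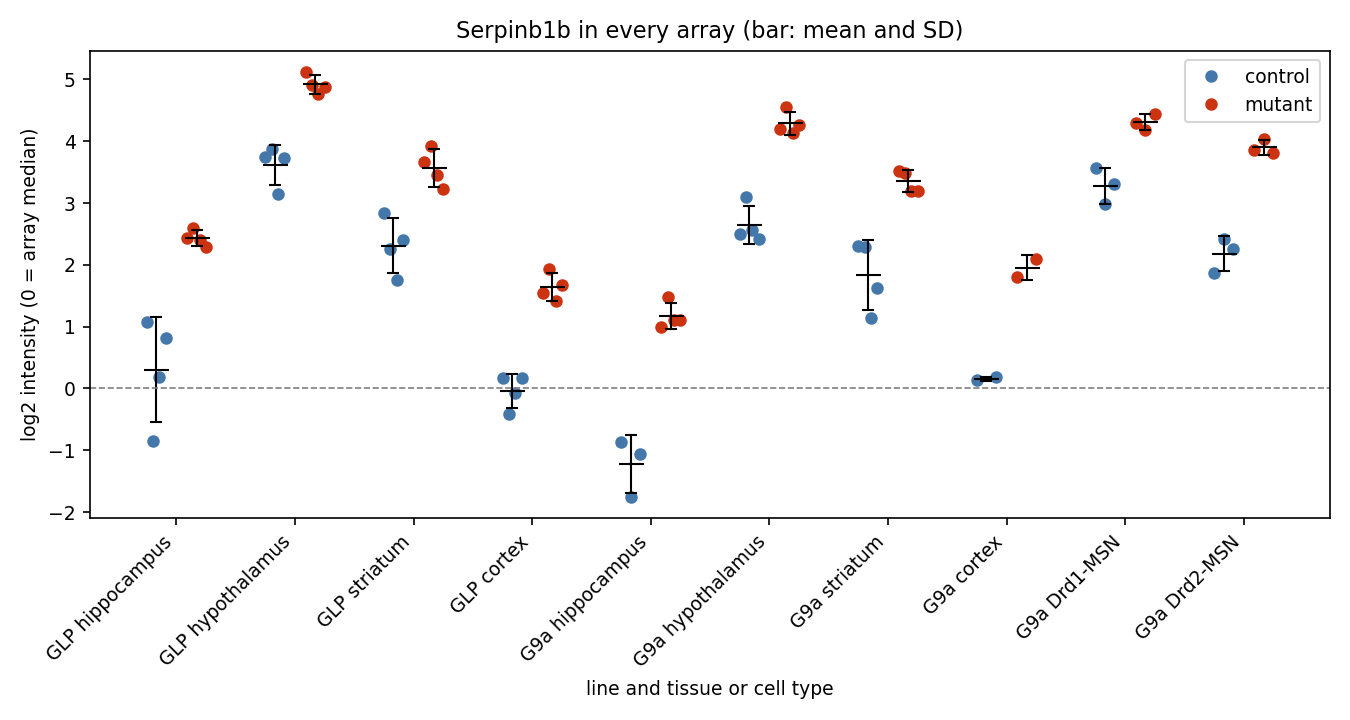
Log2 intensity of Serpinb1b on each array (points, relative to the array median) by line and tissue, mutants in red and controls in blue, with bars for the group mean and SD. Every point labelled mutant lies above every control point of its own comparison (in Drd2-MSN, Ehmt2 goes against the labels), while the control levels themselves differ between tissues.

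In GRCm38.p6 order the measured genes of the chromosome 13 cluster are Serpinb1a, Serpinb6b, Serpinb9, Serpinb9b, Serpinb1b, Serpinb9c, Serpinb9d, Serpinb9g, Serpinb6e, Serpinb6c and Serpinb6a. The neighbours Serpinb9b (-3.02 to -1.37) and Serpinb9c (-3.21 to -0.89) were below the median on every array. Serpinb1a, the closest relative by name, changed by 0.31 in the GLP and 0.03 in the G9a hippocampus, and its other probe set by 0.61 (adjusted p = 0.293) and -0.27. The mean of Serpinb9 was higher in the mutants in all 8 whole-tissue comparisons, with calls in 3. Probe sequences were not used here, so whether a probe set also binds a close paralog was not tested.

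Serpinb1a itself rose in the GLP cortex. It lay at 2.79, 2.84, 3.23 and 3.33 in the mutants and at 2.13, 2.13, 2.29 and 2.43 in the controls, without overlap. The change was 0.8 (SE 0.16, adjusted p = 0.00127), but its other probe set changed by 0.35 without a call (adjusted p = 1.0). In G9a cortex, mutants read 3.11 and 2.99 and controls 2.62 and 2.53, a change of 0.48 that was not called (adjusted p = 1.0). Its change in the other 6 whole-tissue comparisons was between -0.1 and 0.31.

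Serpinb9, which inhibits granzyme B and protects cells from their own or a neighbour's cytotoxic granules, moved by smaller amounts. GLP cortex mutants had it at 2.8, 3.0, 3.01 and 3.11 and controls at 2.21, 2.25, 2.4 and 2.69. G9a hippocampus mutants had it at 3.05, 3.47, 3.53 and 3.61 and controls at 2.91, 2.59 and 2.91. G9a hypothalamus mutants had it at 3.98, 4.17, 4.05 and 3.65 and controls at 3.31, 3.46, 3.31 and 3.46. In these 3 comparisons no arrays overlapped and Serpinb9 rose by 0.59 (SE 0.15, adjusted p = 0.0221), 0.61 (SE 0.16, adjusted p = 0.0262) and 0.57 (SE 0.15, adjusted p = 0.0281).

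These 3 calls are near the threshold. The GLP cortex call was lost when any 1 of 6 of the 8 arrays was left out: mutant 2, 3 or 4, or control 1, 2 or 3 (adjusted p up to 0.129). The G9a hippocampus call was lost without mutant 2, 3 or 4 or control 2 (up to 0.234), and the G9a hypothalamus call without mutant 3 or control 2 or 3 (up to 0.0913). The G9a hippocampus call was also lost with the replicate block (0.116), in a fit of those groups alone (0.0803) and with averaged probe sets (0.0803), and the G9a hypothalamus call in a fit of those groups alone (0.473) and with averaged probe sets (0.0596). The other Serpinb9 probe set changed by 0.5, 0.36 and 0.37 in the 3 comparisons and was called in none (adjusted p = 0.435, 0.449 and 0.413). In the other whole-tissue comparisons Serpinb9 changed by 0.25 to 0.5 without a call, for example 0.5 in GLP hippocampus (adjusted p = 0.0777), where mutants at 3.4 to 3.75 did not overlap controls at 3.03 to 3.23. That change passed with quantile normalization (0.0307) and in a fit of those groups alone (0.0157). Fits of the compared groups alone also called Serpinb9 in G9a striatum (0.43, adjusted p = 0.0354) and G9a cortex (0.49, adjusted p = 0.0217). Every mutant array was above every control for Serpinb9 in 7 of the 10 comparisons. In MSNs Serpinb9 changed by -0.18 and 0.27.

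Serpinb5, called maspin and known from epithelia, where it acts on adhesion and migration and not as a protease inhibitor, rose in GLP cortex. The mutants read 0.72, 0.77, 0.15 and 0.63 and the controls -2.43, -1.51, -2.22 and -1.89. The change was 2.58 (SE 0.3, adjusted p = 9.04e-09). All controls were below the array median, so the gene entered the test through the mutants alone, and the size rests on low values: with the controls set to the median the mutants were at least 1.48-fold higher.

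The same gene was left untested in striatum and in G9a cortex, because too few arrays were above the median. GLP striatum mutants had Serpinb5 at 1.31, 0.92, -0.19 and -0.79, against -1.91, -2.51, -2.51 and -2.18. G9a striatum mutants had it at 0.94, 0.78, -0.24 and 0.35, against -2.59, -2.37, -2.66 and -2.33. G9a cortex mutants had it at 0.2 and -0.59, against -2.24 and -1.64. No mutant array overlapped a control. Every mutant array was above every control for 2.76% of all genes tested in GLP striatum and 6.11% in G9a striatum. In G9a cortex, with 2 arrays per group, that held for 18.4%, so it says little there. Without the filter the changes were 2.59 (SE 0.29, adjusted p = 5.05e-09), 2.94 (SE 0.29, adjusted p = 1.32e-10) and 1.75 (SE 0.41, adjusted p = 0.0205). These sizes rest on controls far below the median. With controls set to the median the mutants were at least 1.24-fold higher in GLP striatum and 1.37-fold in G9a striatum, and no fold is given for G9a cortex, where the mutant mean was also below the median.

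In MSN polyribosomes Serpinb5 was tested and not called. Drd1-MSN mutants read 0.22, 0.38 and 2.52 and controls -1.75, -1.2 and -0.26, a change of 2.11 (SE 0.59, adjusted p = 0.943). The libraries labelled Drd2-MSN mutant read 0.22, 1.25 and 0.8 and controls -1.01, -1.9 and -2.34, a change of 2.51 (SE 0.59, adjusted p = 0.865). The groups did not overlap in either cell type, with mutants above controls, as for 2.9% of all genes tested in Drd1-MSN and 3.4% in Drd2-MSN.

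In hippocampus and hypothalamus of both lines Serpinb5 stayed at or below -1.28 on every array, mutants included, and its change was between -0.14 and 0.43. The change differed between the 4 regions by limma's F test in GLP (adjusted p = 1.92e-07) and in G9a (adjusted p = 2.88e-05). That test called 2 of 15 serpins in GLP, where 1.08% of all genes were called, and 1 of 16 in G9a, where 1.37% were. Serpinb5 entered both tests through the striatum and cortex mutants alone. Both treated arrays of different regions as independent, as did the F tests of Serpina9 below. The sample titles do not say whether 1 mouse gave several regions. With values floored at the array median these F tests gave adjusted p-values of 0.219 and 0.57. The floor removes the part of the difference below the median. With probe sets averaged per gene, Serpinb5 was left untested.

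Among 13 liver and plasma protein markers, Afp was higher in each comparison where the Serpinb5 groups did not overlap. It rose by 6.34 and 3.3 in GLP striatum and cortex, 6.41 and 3.37 in G9a striatum and cortex, and 6.17 and 6.65 in Drd1-MSN and, by its labels, Drd2-MSN. The list did not move as one: of 3 tested markers in GLP striatum 1 rose and 1 fell (Rbp4), and of 4 tested in G9a hippocampus, where Serpinb5 changed by 0.17, 2 rose (Fbp1 and Rbp4). The mean of all 13, which includes Afp itself, lay at -0.74 to -0.36 per GLP striatum mutant array against -1.06 to -0.94 in controls. The median change of the 3 tested there was -0.81. In GLP hippocampus and in the hypothalamus of both lines 0 of these markers were called. The part of these markers in the Serpinb5 result was not tested.

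The 3 other Serpinb5 probe sets gave changes of different size. One rose by more, with 3.54 in GLP striatum, 3.55 in GLP cortex, 4.23 in G9a striatum and 2.7 in G9a cortex. Another changed by 1.44, 2.11, 1.59 and 0.88 in the same order, the last without a call (adjusted p = 0.983). The last of them changed by 0.22 to 0.25 and was called in none of these 4.

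**Figure D4:**
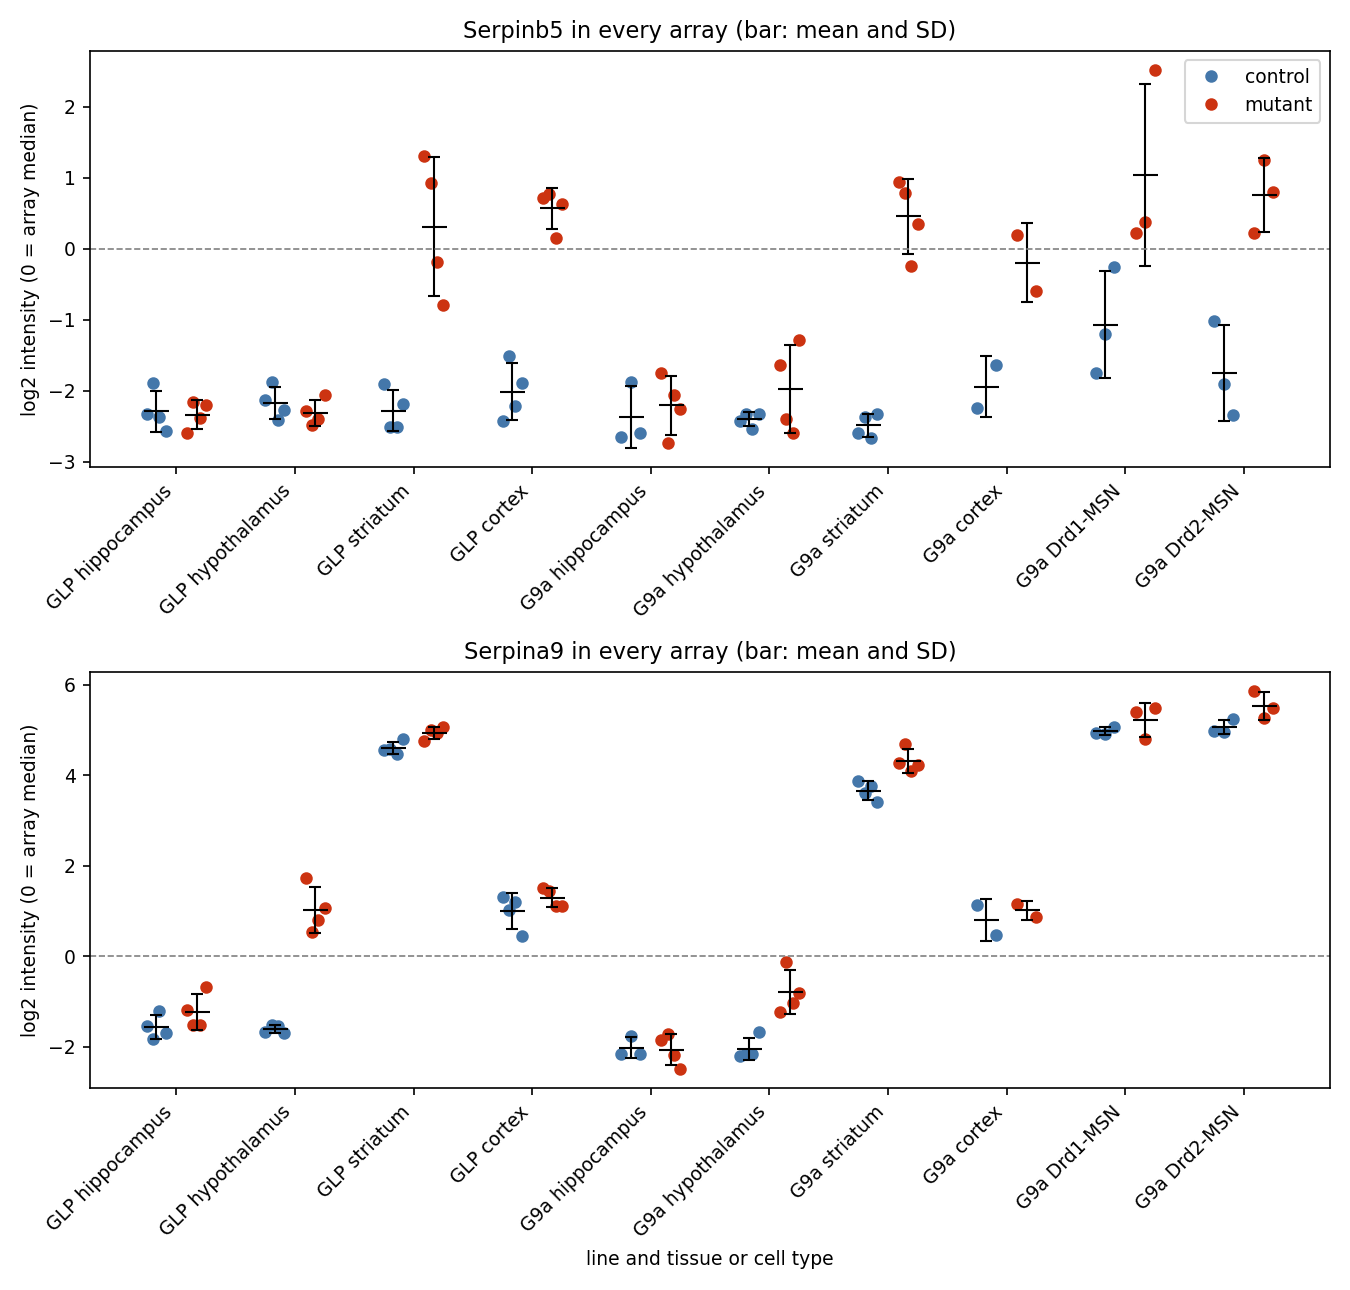
Log2 intensity of Serpinb5 and Serpina9 on each array (points, relative to the array median) by line and tissue, mutants in red and controls in blue, with bars for the group mean and SD. Arrays labelled mutant separate from controls for Serpinb5 in striatum, cortex and MSNs (in Drd2-MSN, Ehmt2 goes against the labels) and not in hippocampus or hypothalamus, while Serpina9 mutants separate most in the GLP hypothalamus.

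Serpina9, known from germinal centre B cells under the name centerin, rose in the GLP hypothalamus. It lay at 1.72, 0.54, 0.8 and 1.06 in the mutants and at -1.67, -1.53, -1.55 and -1.69 in the controls. The groups did not overlap, and the change was 2.64 (SE 0.21, adjusted p = 2.87e-13). The gene entered the test through the mutants alone, and with the controls set to the median the mutants were at least 2.05-fold higher. Leaving out any 1 array kept the change between 2.41 and 2.81.

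In the G9a hypothalamus Serpina9 lay at -1.23, -0.12, -1.03 and -0.81 in mutants and -2.2, -2.15, -2.15 and -1.68 in controls. It was untested there, being below the median on all arrays, and without the filter its change was 1.25 (SE 0.21, adjusted p = 0.000183). The difference between the GLP and G9a changes was 1.4 (SE 0.3, adjusted p = 0.0662), which passed the threshold with values floored at the array median (0.0144) and with quantile normalization (0.0452). It also passed without G9a hypothalamus mutant 2 (0.00181), GLP hypothalamus mutant 2 (0.0224) or G9a hypothalamus control 1 (0.0423).

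In the striatum, where Serpina9 was far above the median in controls, G9a mutants had it at 4.26, 4.7, 4.09 and 4.22 and controls at 3.88, 3.6, 3.77 and 3.4. The change of 0.65 (SE 0.21) was not called (adjusted p = 0.0924), although the groups did not overlap. It passed with values floored at the array median (0.0055) and in a fit of those groups alone (0.0326). GLP striatum mutants at 4.75 to 5.06 and controls at 4.46 to 4.79 did overlap. The GLP change of Serpina9 differed between regions by limma's F test (adjusted p = 6.57e-08), and the G9a change did not pass it (adjusted p = 0.077).

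Serping1, the C1 inhibitor, which restrains the first complement proteases and the contact system, rose in 3 comparisons. G9a hippocampus mutants had it at 2.77, 3.05, 3.39 and 3.59 and controls at 2.1, 1.84 and 2.35. G9a hypothalamus mutants had it at 2.96, 2.33, 2.61 and 2.63 and controls at 1.86, 1.52, 1.6 and 2.08. GLP hypothalamus mutants had it at 2.14, 3.14, 3.02 and 2.38 and controls at 2.38, 1.4, 1.27 and 1.98. The G9a groups did not overlap and the GLP groups did, and the changes were 1.1 (SE 0.26, adjusted p = 0.00918), 0.86 (SE 0.24, adjusted p = 0.0419) and 0.91 (SE 0.24, adjusted p = 0.0492).

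The G9a hippocampus call was lost without mutant 4 or control 2 (adjusted p up to 0.102) and with the replicate number as a block (0.0921). The G9a hypothalamus call was lost without mutant 1, 3 or 4 or control 2 or 3 (up to 0.144), with the block (0.0531), without the filter (0.0511) and in a fit of those groups alone (0.207). The GLP hypothalamus call was lost without mutant 2 or 3 or control 2 or 3 (up to 0.302), with the block (0.0781), without the filter (0.0545) or the intensity trend (0.0518), with averaged probe sets (0.0533) and in a fit of those groups alone (0.497). In the other 5 whole-tissue comparisons Serping1 changed by 0.09 to 0.88.

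Some markers of non-neuronal cells also rose in the G9a hippocampus, and others did not. Of 10 tested meningeal and fibroblast markers 3 rose there (Col1a2, Fmod and Lum), and the mean of that list was 1.56 to 3.06 per mutant array and 1.14 to 1.66 per control. Of 12 tested microglial and macrophage markers 3 rose (Cd163, Lyz2 and Mrc1), with list means of 2.42 to 2.95 against 2.31 to 2.47. Of 7 tested reactive astrocyte markers 2 rose, with list means of 1.03 to 1.34 against 0.69 to 0.94. Called there were 0 of 10 astrocyte, 0 of 9 oligodendrocyte and 0 of 10 endothelial and mural markers. In the hypothalamus of either line 0 meningeal and 0 microglial markers were called, and 1 of 7 reactive astrocyte markers rose. Their part in the Serping1 result was not tested.

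In the GLP hippocampus 11 of 13 tested choroid plexus and ependymal markers rose, with list means of 2.75 to 3.64 per mutant array against -0.03 to 1.95. In the G9a hippocampus 1 of 7 tested markers of that list rose, with list means of -0.38 to 0.19 against -0.62 to -0.56. Their part in the Serpinb1b changes was not tested.

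Serpina3n, an antichymotrypsin-like inhibitor and a common marker of reactive astrocytes, changed by 0.17 to 1.83 in the 10 comparisons and was called in none. Its arrays were spread widely within groups. GLP control 1 was the lowest control in all 4 regions, at 3.6 in hippocampus, 2.43 in hypothalamus, 0.48 in striatum and 1.31 in cortex, whereas the other controls lay at 5.62 to 6.47, 4.26 to 5.07, 3.02 to 4.55 and 4.09 to 5.06. GLP control 3 was the highest control in all 4 regions, and GLP mutant 2 the lowest mutant in all 4.

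Among the G9a arrays, mutant 2 was the highest in hippocampus (5.84), hypothalamus (4.13) and striatum (3.48). In the G9a striatum the other mutants read 0.31 to 0.68 and the controls -0.03 to 0.28. Drd1-MSN mutants 1 and 3 read 3.35 and 2.93, mutant 2 read -0.04 and the controls 0.07 to 0.56. The Drd1-MSN change of Serpina3n was 1.83 (SE 0.67, adjusted p = 0.943) with mutant 2 and 2.89 (adjusted p = 0.000587) without it, and the difference from the Drd2-MSN change then passed too (2.71, adjusted p = 0.0489).

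**Figure D5:**
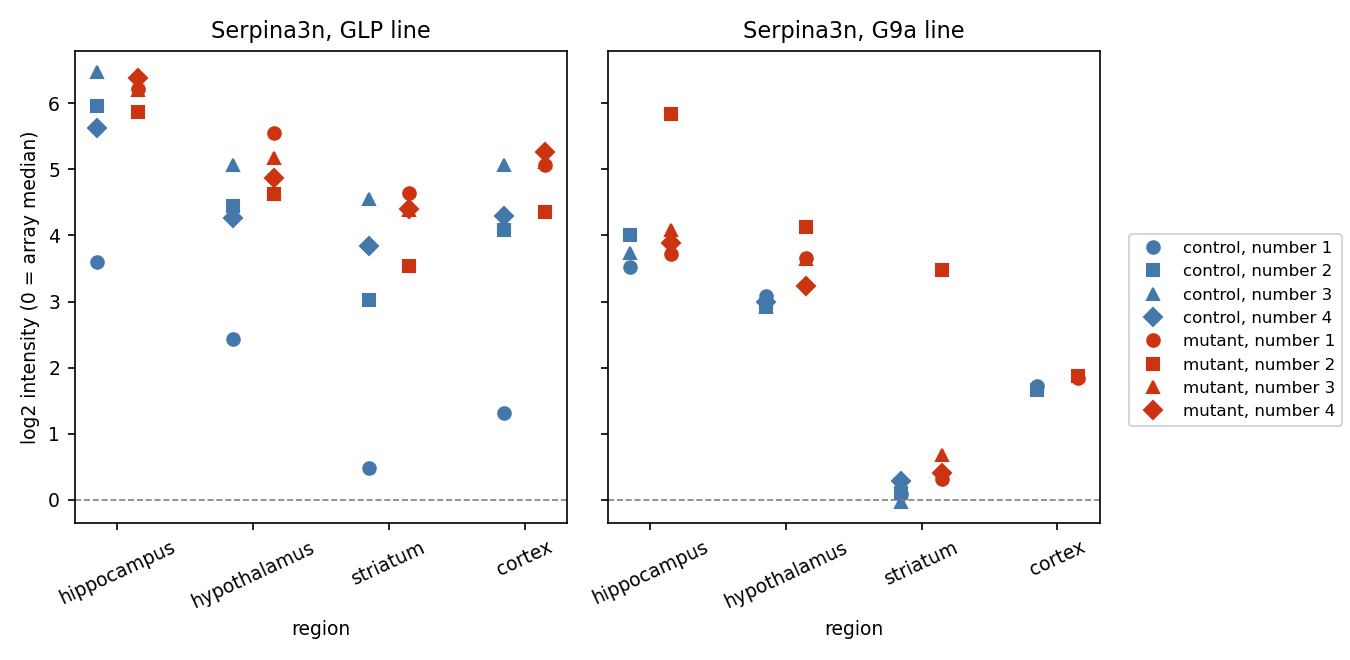
Log2 intensity of Serpina3n on each whole-tissue array (relative to the array median) by line and region, mutants in red and controls in blue, with a marker shape for each replicate number. GLP control 1 is the lowest of its group in all 4 regions, and G9a mutant 2 is the highest of its group in hippocampus, hypothalamus and striatum.

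The remaining serpins above the median did not change past the threshold in any mutant comparison. In whole tissue, neuroserpin (Serpini1), which inhibits tissue plasminogen activator, changed by -0.28 to 0.27. Serpinb6a, an inhibitor of cathepsin G and related proteases, changed by -0.1 to 0.16, Serpinb6e by -0.4 to 0.04, and Serpinf1 (pigment epithelium-derived factor) by -0.29 to 0.35. Serpinh1, the collagen chaperone HSP47, changed by -0.23 to 0.43 and Serpind1, the thrombin inhibitor heparin cofactor II, by -0.27 to 0.72. Over all 10 comparisons, MSNs included, the range was -0.91 to 0.6 for Serpinf1, -0.77 to 0.43 for Serpinh1 and -0.74 to 0.72 for Serpind1. It was -0.38 to 0.16 for Serpinb6a, -0.4 to 0.27 for Serpinb6e and -0.28 to 0.27 for Serpini1. In GLP hippocampus the Serpinh1 change passed in a fit of those groups alone (0.38, adjusted p = 0.035). In G9a hypothalamus it passed without mutant 2 (0.56, adjusted p = 0.014).

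In the G9a striatum Serpinb6e lay at 2.3, 2.26, 2.09 and 2.3 in the mutants and at 2.61, 2.63, 2.76 and 2.57 in the controls, every mutant being below every control, as for 5.27% of all genes tested there. Its change of -0.4 (SE 0.13) was not called (adjusted p = 0.0869), but passed with the replicate block (0.0363) and in a fit of those groups alone (0.0258).

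Without the filter, 2 more serpins below the median passed in the hypothalamus. Serpinb11, a clade B gene on chromosome 1, changed by 1.95 in GLP (adjusted p = 4.46e-06) and by 1.06 in G9a (adjusted p = 0.028). Serpina1b changed by 1.32 in GLP (adjusted p = 0.0055). Their mutant means, -0.5 and -1.98 for Serpinb11 and -0.63 for Serpina1b, remained under the array median.

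The tests of a difference between the 2 lines' changes called 0 serpins. In limma 11, 13, 13 and 15 serpins were tested in hippocampus, hypothalamus, striatum and cortex, with 1, 1, 1 and 0 at an unadjusted p under 0.05. Over all genes 596 of 12110, 1019 of 12032, 772 of 11874 and 124 of 11899 had such an unadjusted p, and 0.157%, 0.00831%, 0.00842% and 0.0168% were called. The difference between the Drd1-MSN and Drd2-MSN changes called 0 of 14 serpins (2 at an unadjusted p under 0.05) and 0.0% of all genes, of which 170 had an unadjusted p under 0.05.

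Most of the tested serpins differed in level between regions in control mice. Each region's controls were compared with the mean of the other 3 regions over both lines. All 4 comparisons share the same 29 control arrays, and 12 or 13 serpins were tested each time. The sample titles do not say whether the same mouse gave several regions, and these tests treated the arrays as independent. Hippocampus had 6 serpins higher and 3 lower (all genes: 38.8% higher, 23.7% lower). Hypothalamus had 5 higher and 3 lower (36.0% and 40.0%), striatum 5 and 6 (36.0% and 28.3%), and cortex 4 and 7 (26.4% and 41.4%). Since most genes differ between regions, the serpins' counts are read against that background and say little by themselves.

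Serpina9 had the widest regional range. Its control means were 4.6 (SD 0.14, n = 4) in GLP and 3.66 (SD 0.21, n = 4) in G9a striatum, and 1.0 (SD 0.39) and 0.8 (SD 0.47, n = 2) in cortex. In hippocampus they were -1.57 and -2.03, and in hypothalamus -1.61 and -2.05, so the latter regions do not differ beyond their spread. Striatum was 5.04 higher than the other regions (SE 0.13, adjusted p = 4.76e-36), hippocampus and hypothalamus differed by -2.86 and -2.91, and cortex was 0.73 higher (SE 0.15, adjusted p = 1.95e-05). The cortex difference turned to -0.48 when values were floored at the array median. MSN polyribosomes held it at 4.97 (Drd1) and 5.06 (Drd2) in controls.

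Serpinb1b was highest in hypothalamus, with control means of 3.62 (SD 0.33, n = 4) in GLP and 2.65 (SD 0.31, n = 4) in G9a. Striatum followed at 2.31 and 1.84 (SD 0.45 and 0.57), with no striatal control array reaching a hypothalamic one of its line. Cortex (-0.04 and 0.15) and hippocampus (0.3 and -1.22) were lowest. The difference was 2.57 for hypothalamus (SE 0.15, adjusted p = 2.8e-21), 1.17 for striatum, -1.53 for cortex and -2.21 for hippocampus. In the GLP controls hippocampus and cortex did not differ beyond their spread, and in the G9a controls hippocampus was lower. The mutant hippocampus remained below the hypothalamic controls of its line on every array.

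Serpinb1a had its own order: 1.32 higher in striatum (SE 0.1, adjusted p = 5.93e-17), 0.58 higher in hypothalamus, and -0.6 in hippocampus and -1.3 in cortex. The hypothalamic difference was -0.03 in the G9a controls alone. Serpinb9 was 1.22 higher in hypothalamus (SE 0.09, adjusted p = 3.31e-17), with differences of -0.98 in striatum and -0.39 in cortex, the last at 0.04 in the G9a controls alone. Serpinb6e was 1.19 higher in cortex (SE 0.09, adjusted p = 1.89e-16), and differed by -0.58 in hypothalamus and -0.44 in striatum. Serpinb6a differed by 0.46 in hypothalamus, 0.19 in hippocampus and -0.59 in cortex.

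Serpina3n was 2.0 higher in hippocampus (SE 0.39, adjusted p = 1.74e-05) and differed by -2.06 in striatum. With the replicate number as a block it was also called in hypothalamus (0.57, adjusted p = 0.00187) and cortex (-0.53, adjusted p = 0.0148). Gfap, the astrocyte filament gene, was also higher in hippocampus (2.13) and lower in striatum (-0.44) and cortex (-2.05). The astrocyte list it belongs to did not move as one. Of its 10 markers, 7 were higher and 0 lower in hippocampus, 2 and 4 in striatum, and 1 and 6 in cortex. Serpina11 was 1.02 higher in cortex (SE 0.13, adjusted p = 2.34e-09). Its control group means were 0.18 and 0.1 there and -0.62 or lower in the other tissues. Among the single arrays, however, G9a hippocampus control 2 read 0.21. Without that array, or in the GLP controls alone, too few arrays were above the median and the gene was untested.

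Among the single-gene clades, Serping1 was higher in hippocampus (1.11) and hypothalamus (0.33) and lower in striatum (-0.81) and cortex (-0.63). The hypothalamic difference was lost without any 1 of 8 of the 29 control arrays (adjusted p up to 0.165) and with the replicate block (0.068). Serpinh1 was higher in hippocampus (0.89) and striatum (0.51) and lower in hypothalamus (-0.33) and cortex (-1.07). Serpind1 was higher in striatum (1.05) and lower in cortex (-0.78), and Serpinf1 was higher in hippocampus (0.6) and lower in striatum (-0.44). For Serpinf1 the hippocampus call was lost in the G9a controls alone (adjusted p = 0.132). The striatum call was lost in the GLP controls alone (0.217) and with averaged probe sets (0.268). Its other probe set, at -2.62 to 0.02 over all arrays, gave 0.77 in hippocampus, 0.23 in striatum (adjusted p = 0.0267), 0.62 in hypothalamus and -1.62 in cortex.

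Serpini1 was highest in cortex, with control means of 8.17 (SD 0.08, n = 4) and 8.18 (SD 0.11, n = 2). Hippocampus (7.67 and 7.83) and hypothalamus (7.3 and 7.22) followed, and striatum was lowest (6.2 and 6.32), an order the 2 lines share. Cortex was 1.09 higher (SE 0.09, adjusted p = 2.96e-15), hippocampus 0.52 higher, and striatum differed by -1.47 (SE 0.08, adjusted p = 1.06e-22).

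Between the control MSN types 2 serpins differed, where 7.7% of all genes were higher in Drd1-MSN and 7.65% lower. Serpinb1b was 1.1 higher in Drd1-MSN (SE 0.26, adjusted p = 0.0152), at 3.56, 2.98 and 3.3 against 1.87, 2.42 and 2.26. The call was lost without Drd1-MSN control 1 or 3 (adjusted p up to 0.0578) and with the replicate block (0.0981). Serpinh1 differed by -1.07 (SE 0.33, adjusted p = 0.0462), a call lost in 5 of 6 cases where 1 array was left out: Drd2-MSN control 1 or 3, or any Drd1-MSN control (up to 0.174).

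The proteases, receptors and partners of serpins were read against the share of all genes called given above for each comparison, 0.0165% to 2.25% for rises and 0.0% to 1.15% for falls. Of 46 listed target proteases 45 were on the array and 13 to 20 were tested per comparison, with 2 rises in all. These were coagulation factor F5 in GLP hippocampus (3.26, adjusted p = 9.47e-05), which is also a choroid plexus marker, and Prss12, the synaptic protease neurotrypsin, in G9a striatum (1.74, adjusted p = 0.018). Of 22 receptors and cofactors, 20 on the array, the reelin receptor Lrp8 rose in G9a striatum (0.38), thrombomodulin (Thbd) rose in G9a hippocampus (0.97), and Lrp1b fell in GLP hypothalamus by 1.25.

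Of 29 collagens and chaperone partners of HSP47, 27 on the array, there were 6 rises and 0 falls: 1 of 22 tested in GLP hippocampus, 2 of 21 in GLP hypothalamus and 3 of 22 in G9a hippocampus, where 1.73%, 0.824% and 2.25% of all genes rose. They included Col6a3 (1.57), Col12a1 (1.31) and Col8a1 (2.22). Of 35 other protease inhibitors, 34 on the array, there were 7 rises and 3 falls. Cst12, a cystatin, rose in 5 comparisons by 3.61 to 4.89, Kazald1 fell in 3 by 0.91 to 1.19, and Spint2, an inhibitor of membrane serine proteases, rose in 1 by 0.73. Over the 10 comparisons the median change was -0.27 to 0.15 for the target proteases, -0.08 to 0.14 for the receptors, -0.3 to 0.17 for the collagens and -0.18 to 0.16 for the other inhibitors. The median over all genes tested was -0.09 to 0.04.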

How the data were processed

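The authors deposited 1 intensity per probe set and array for 71 mouse arrays of 45101 probe sets, made with GCRMA per the submitters' processing notes. No source used here states the version or which arrays shared a run. The deposited intensities are linear with a median of 1 on every array, so log2 values are relative to that median. RNA was amplified over 2 cycles per the labels' protocols, which can compress or widen differences. Probe sets with 1 gene symbol (34945) were kept, 1 per gene by highest mean.

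limma 3.58.1 in R 4.3.3 was fitted with group means over the 59 whole-tissue arrays (16 groups) and the 12 polyribosome arrays (4 groups), with an intensity trend, over 22 comparisons. Array number per group limits the precision. The members and gene lists were chosen with earlier results of these data known. Named are members called in any comparison, members above the median in a group, and at most 3 called genes per list. Same-numbered mutant and control arrays all correlated above 0.1 only in Drd2-MSN (0.165 to 0.483). Beyond such correlations, whether the numbers pair samples was not tested. Alternatives tried were no filter, a floor, quantile normalization, separate fits, no trend, averaged or other probe sets (the last chosen after seeing the data), the block, each line alone and leaving out each array. The fits were tested on simulated data.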

Additional observations from a re-analysis of the deposited data

Results flagged for a closer look

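Serpina3n in the G9a striatum mutants had 1 array at 3.48, far from the others at 0.31 to 0.68. Of 42 sets examined, each being 1 serpin in 1 group, this was the 1 that passed Dixon's criterion. Chance gives about 1 in 20 such sets, so 1 of 42 is not more than chance gives. The array with the same replicate number was the highest mutant for Serpina3n in G9a hippocampus and hypothalamus. The cause was not tested.

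The change of Serpina9 in GLP mutants differed between the 4 regions (limma F test, adjusted p = 6.57e-08), being 2.64 in hypothalamus. The change of Serpinb5 differed between the regions in GLP (adjusted p = 1.92e-07) and in G9a (adjusted p = 2.88e-05). It was large in striatum and cortex and near 0 in hippocampus and hypothalamus. The gene entered both tests through the striatum and cortex mutants alone. All of these F tests treated arrays of different regions as independent. With values floored at the array median the adjusted p-values were 0.219 and 0.57, and with averaged probe sets the gene was untested.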

How the results depend on the processing

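Over 61 calls of single serpins, the settings other than another probe set kept direction and call in 467 cases, lost the call in 31 and reversed it in 3. Leaving out 1 array kept them in 1321 cases, lost the call in 41 and reversed none. Serpinb1b kept its call under every setting in all 8 whole-tissue comparisons, G9a cortex without mutant 2 excepted.

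With each other probe set on its own, Serpini1 turned to -0.16 in hippocampus (adjusted p = 0.086) and Serpinf1 to 0.23 in striatum (adjusted p = 0.0267). In the G9a controls alone, Serpinb1a in hypothalamus gave -0.03 and Serpinb9 in cortex 0.04. With the floor, Serpina9 in cortex gave -0.48.

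Counts of called serpins moved by over 1.5 times as follows. GLP hippocampus, 1 as reported, gave 2 with quantile normalization and 3 when only the compared groups were fitted. GLP striatum, 1 as reported, gave 2 with no filter. G9a hypothalamus fell from 3 to 1 with the groups alone. G9a striatum, 1 as reported, gave 2 with no filter, 2 with the floor and 4 with the groups alone, and G9a cortex, 1 as reported, gave 2 with no filter and 3 with the groups alone. Drd2-MSN, 0 as reported, gave 1 with quantile normalization, without the trend and with averaged probe sets. With no filter hypothalamus gave 21 in place of 8, striatum 29 in place of 11, cortex 29 in place of 11, and Drd1-MSN against Drd2-MSN 12 in place of 2. The line difference in hypothalamus, 0 as reported, gave 1 with the floor and with quantile normalization. The regional F test fell from 2 to 1 in GLP and from 1 to 0 in G9a, both with the floor and with averaged probe sets.

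Leaving out 1 array gave 1 to 3 called serpins in G9a hippocampus, 1 to 4 in G9a hypothalamus, 1 to 2 in G9a striatum, 0 to 1 in Drd1-MSN, 0 to 2 for Drd1-MSN against Drd2-MSN, 0 to 1 for the line difference in hypothalamus, 0 to 1 for the MSN difference and 1 to 2 for the G9a regional F test. The 1 in Drd1-MSN and in the MSN difference is Serpina3n, without Drd1-MSN mutant 2.

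With the replicate number as a block, G9a hippocampus fell from 3 calls to 1, GLP hypothalamus and G9a hypothalamus each from 3 to 2, G9a striatum rose from 1 to 2 (the added call being a fall of Serpinb6e) and Drd1-MSN against Drd2-MSN fell from 2 to 0. Same-numbered arrays of the other 9 mutant comparisons correlated at -0.301 to 0.623, and those of G9a hypothalamus at -0.055 to 0.623. Differently numbered arrays correlated at -0.379 to -0.024 in Drd2-MSN, -0.384 to 0.177 in G9a hypothalamus and -0.2 to 0.399 in Drd1-MSN. Beyond these correlations, whether the numbers pair mutants with controls was not tested in any comparison. In G9a hypothalamus, 1 control is numbered by its title, from which its source name differs. In the Drd2-MSN comparison the block changed no serpin call. The number of arrays and the untested low probe sets set the limits.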
